A study of Bos taurus with 4 samples.

Results

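The brush border peptidases are enzymes on the apical membrane of enterocytes, the absorptive cells of the intestinal epithelium. They were taken as the 8 genes ANPEP, DPP4, ENPEP, MME, ACE, TMPRSS15, MEP1A and MEP1B, chosen by their symbols and not by their values, and each had 1 of the 29792 rows of the deposited count tables. RNA of 4 bovine libraries was measured with QuantSeq, a method that sequences the 3′ ends of polyadenylated RNA, with 1 library each of intact small intestine, muscle, intestinal organoids at passage 5 (P5) and intestinal organoids at passage 10 (P10). The samples are labelled as Hanwoo cow, and the organoids were grown in Matrigel and Intesticult medium from jejunal crypts of healthy animals over 24 months old. The labels do not say whether the intestine, the muscle and both organoid cultures came from the same animal, and no treatment or genetic change is named. The study calls the intact tissue of the intestine library small intestine and gives no segment for it. Each condition has 1 library, so differences could not be checked against replicates and no test was made.

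Dietary protein is cut by pancreatic proteases in the lumen, and the resulting oligopeptides are trimmed by the brush border peptidases to free amino acids and to dipeptides and tripeptides that enterocytes take up. Enteropeptidase, the product of TMPRSS15, starts this chain because it converts pancreatic trypsinogen to trypsin. The levels of several of these enzymes are known to increase as enterocytes leave the crypt and mature on the villus. Outside the gut epithelium, some are also made by other cells: ACE in endothelium, ENPEP in pericytes, MME and ANPEP in fibroblasts and leukocytes, and DPP4 in T cells.

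The libraries held 12917720 to 17776273 reads. Levels are given as RPM, reads per 1000000 reads of the library total, each with an exact 95% Poisson interval, and differences between libraries as log2 differences of quantile-normalised values with 1 added, each with a 95% counting interval. PCR copies were not separated, and the intervals hold nothing but counting error. No read in a library allows a level of up to 3 reads, which is 0.169 RPM in intestine and P10 organoids, 0.221 in P5 organoids and 0.232 in muscle. The marker genes followed the labels. Summed over 9 epithelial markers, the level was 10955 RPM in P5 organoids and 9933 in P10 organoids, against 2203 in intestine and 23.1 in muscle. In P10 organoids the keratins KRT8, KRT19 and KRT18 had 72376, 46154 and 33299 of the 176126 reads of this list, so that sum rested on them. The median log2 difference of the 9 markers from intestine was 2.0 in P5 organoids and 0.91 in P10 organoids. Between P10 and P5 organoids it was -0.73. The 9 skeletal muscle markers summed to 43361 RPM in muscle and to between 1.97 and 3.38 in the other libraries. Of the 7 stroma markers, 4 had no read in P5 organoids and 6 had none in P10 organoids, while all 7 had at least 201 reads in intestine. Intact tissue thus held RNA of cell types with few or no reads in the organoids, and fewer cells of a type and less RNA per cell cannot be told apart in these libraries.

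Over all 8 genes, the reads summed to 2342 RPM in P5 organoids (95% interval 2316 to 2368) and 77.2 in P10 organoids (73.2 to 81.4), against 410 in intestine (400.3 to 419) and 45.4 in muscle (41.8 to 49.2). The high sum in P5 organoids rested on ANPEP, which gave 88.2% of it, against 1.72% in intestine. Without ANPEP, the 7 other genes summed to 275 RPM in P5 organoids and 63.5 in P10 organoids, against 403 in intestine and 33.6 in muscle. The order of intestine and P5 organoids was therefore set by 1 gene, and P10 organoids lay below both with or without it.

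**Figure D1:**
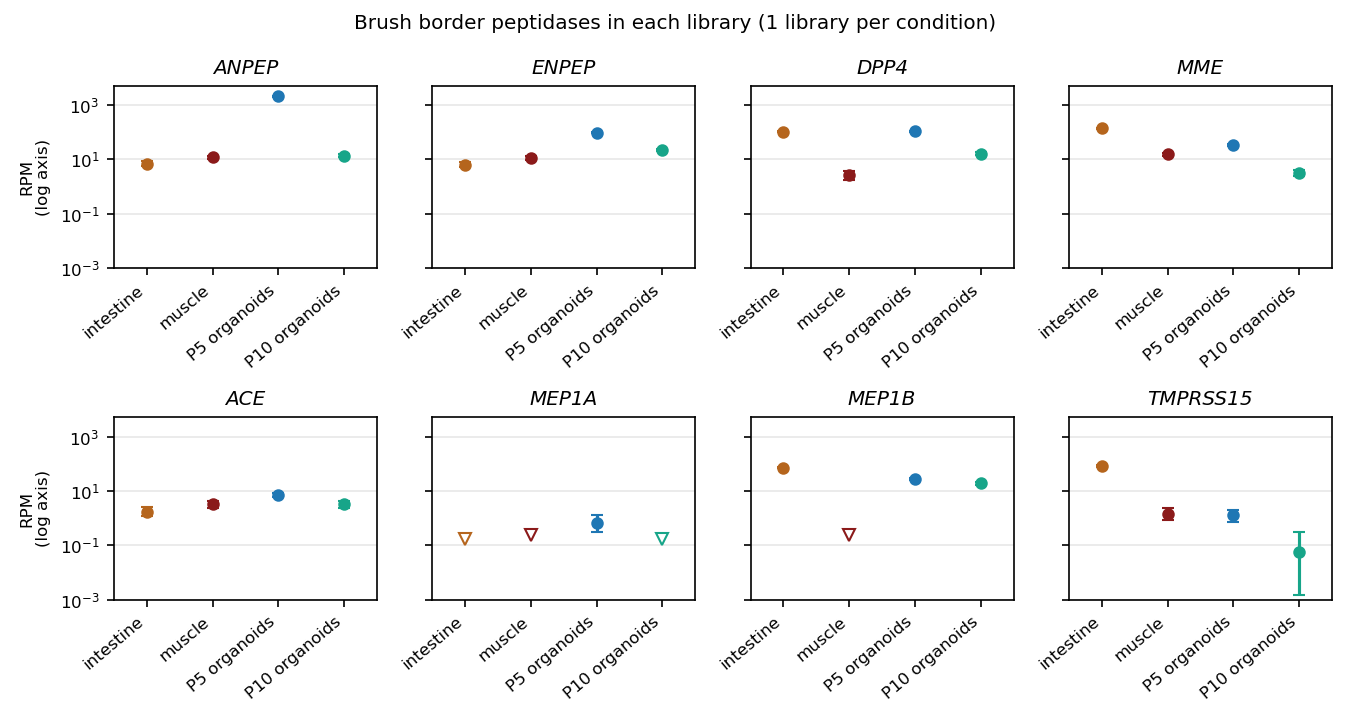
RPM (log axis) of the 8 brush border peptidases in each of the 4 libraries. Points are single libraries, bars are exact 95% Poisson intervals, and open triangles mark libraries with no read, drawn at the level of 3 reads. ANPEP stands at 2066 RPM in P5 organoids and at 13.7 or less in the other libraries, while TMPRSS15 stands at 82.0 in intestine and at 1.47 or less elsewhere.

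The aminopeptidases remove single residues from the N-terminal end of peptides. ANPEP, aminopeptidase N, which prefers neutral residues, had 125 reads in intestine and 152 in muscle, and 28104 at P5 and 243 at P10. As RPM, in the same order, these are 7.03 (5.85 to 8.38), 11.8 (9.97 to 13.8), 2066 (2042 to 2091) and 13.7 (12.0 to 15.5). P5 organoids stood apart from the 3 other libraries, which lay within 2-fold of each other as RPM. The log2 difference of P5 organoids and intestine was 8.86 (8.52 to 9.20), and that of P10 and P5 organoids was -7.82 (-8.00 to -7.66). Per library total, the P5 level of ANPEP was 294-fold that of intestine (247 to 353) and 151-fold that of P10 organoids (133 to 172). Between P10 organoids and intestine the log2 difference was 1.04 (0.66 to 1.42), and with library totals, TMM, upper-quartile or median-of-ratios scaling it stayed below 1, down to 0.70.

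ENPEP, aminopeptidase A, which removes acidic residues and cuts angiotensin II, had 114 reads in intestine and 141 in muscle, and 1311 at P5 and 389 at P10. Its levels were 6.41, 10.9, 96.4 and 21.9 RPM, so it was lowest in intestine and highest in P5 organoids, as ANPEP was. The log2 difference from intestine was 4.09 in P5 organoids (3.72 to 4.44) and 1.86 in P10 organoids (1.48 to 2.24), and the passages were -2.23 apart (-2.38 to -2.07). The row of LOC101902994, a long non-coding RNA whose gene model overlaps ENPEP in the RefSeq annotation of ARS-UCD2.0, had 115, 173, 1362 and 389 reads in the same order of libraries. These are 101%, 123%, 104% and 100% of the reads of ENPEP, so the reads of both genes cannot be told apart.

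DPP4 and ACE both release dipeptides, DPP4 from the N-terminal end of a peptide and ACE from the C-terminal end. DPP4 is a dipeptidyl peptidase that cuts behind a proline or alanine next to the N-terminal residue and also inactivates incretin hormones. It had 1840 reads in intestine and 33 in muscle, and 1463 at P5 and 290 at P10. Its levels in intestine and P5 organoids, 104 (98.8 to 108) and 108 (102 to 113) RPM, had overlapping intervals. With quantile normalisation the log2 difference of these libraries was -0.20 (-0.29 to -0.10), and across the scalings it ran from -0.20 to 0.06. At P10 the level of DPP4 was 16.4 RPM, with a log2 difference of -2.98 from intestine (-3.16 to -2.81) and -2.78 from P5 organoids (-2.97 to -2.61). ACE, the angiotensin-converting enzyme, a peptidyl-dipeptidase, was thinly covered in every library, with 31 reads in intestine and 42 in muscle, and 97 at P5 and 56 at P10. Against intestine, its log2 difference was 2.59 in P5 organoids (1.99 to 3.23) and 1.59 in P10 organoids (0.97 to 2.24), where library totals gave 1.81-fold (1.15 to 2.91). The difference of P10 and P5 organoids was -1.0 (-1.41 to -0.60), at the 2-fold limit itself.

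The endopeptidases cut within the peptide chain. MME, neprilysin, had 2456 reads in intestine and 199 in muscle, and 466 at P5 and 56 at P10, or 138, 15.4, 34.3 and 3.16 RPM. It was highest in intestine and lowest in P10 organoids, below muscle. Against intestine, its log2 difference was -2.23 in P5 organoids (-2.37 to -2.09) and -5.37 in P10 organoids (-5.69 to -5.08), and the passages were -3.14 apart (-3.48 to -2.82). The meprins are secreted or membrane-bound metalloproteases of the astacin family, built from α and β subunits. MEP1B, the β subunit, had 1259 reads in intestine and none in muscle, and 381 at P5 and 334 at P10, or 70.8, 0, 28.0 and 18.8 RPM. Both organoid libraries were below intestine, by log2 differences of -1.55 (-1.72 to -1.39) and -2.23 (-2.40 to -2.06). They differed from each other by -0.68 (-0.88 to -0.47), the smallest difference in size of the 7 peptidases with at least 10 reads in either organoid library. MEP1A, the α subunit, had 9 reads in P5 organoids, or 0.662 RPM (0.303 to 1.26), and no read in the other libraries. Its P5 level was 3.92-fold the level of 3 reads in intestine, without the counting error of its 9 reads. Between the other libraries no difference was detectable at this depth. With under 10 reads everywhere, MEP1A enters no count of the comparisons below.

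TMPRSS15 had 1458 reads in intestine and 19 in muscle, and 17 at P5 and 1 at P10. The levels were 82.0 (77.9 to 86.3), 1.47 (0.886 to 2.30), 1.25 (0.728 to 2.0) and 0.0564 (0.00143 to 0.314) RPM. P5 organoids and muscle had overlapping intervals, and only intestine was clearly above 3 RPM. Per library total, TMPRSS15 was 65.6-fold lower in P5 organoids than in intestine (40.8 to 113) and 1454-fold lower in P10 organoids, where the single read left an interval from 261 to 57479. The log2 differences from intestine were -5.85 (-6.64 to -5.20) and -8.24 (-10.21 to -7.03). With 1 read in P10 organoids and 17 in P5 organoids, the passages were -2.39 apart (-4.46 to -0.95), the widest interval of the 7 genes in that comparison.

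**Figure D2:**
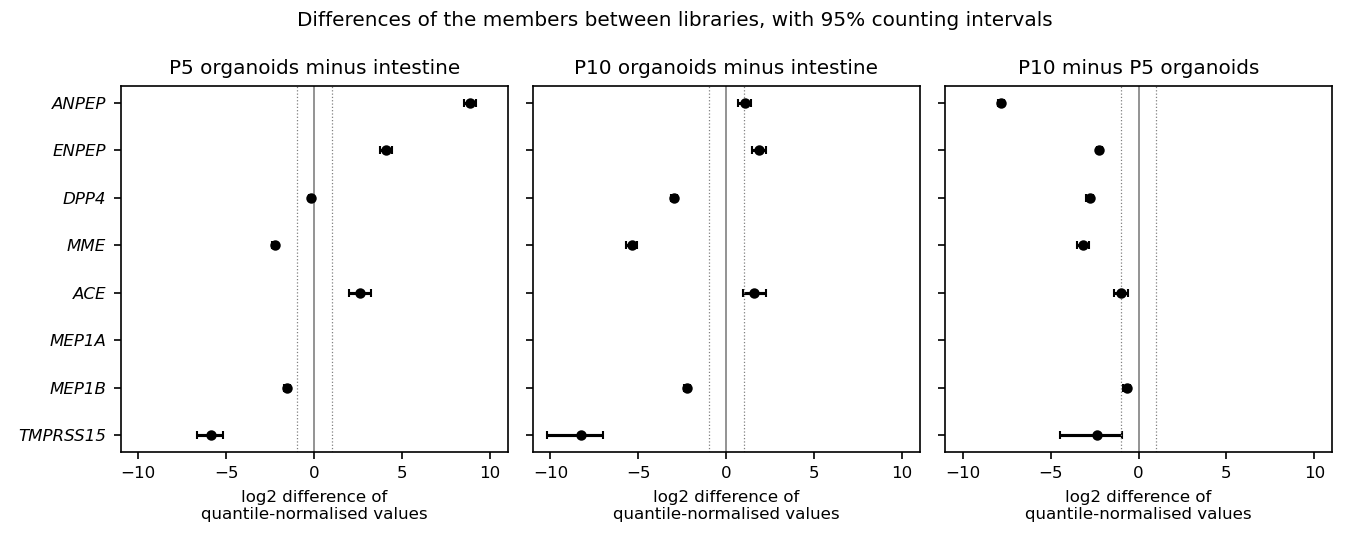
Log2 differences of quantile-normalised values (with 1 added) of the 7 peptidases that passed the minimum of 10 reads, for P5 organoids against intestine, P10 organoids against intestine, and P10 against P5 organoids. Bars are 95% counting intervals and dotted lines mark 2-fold; MEP1A, with at most 9 reads, is not drawn. ANPEP, ENPEP and ACE lie to the right of 0 in both comparisons with intestine, and all 7 genes lie to the left of 0 in the comparison of the passages.

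P5 organoids were compared with intestine to set the culture beside intact intestine. A gene was counted as different when the log2 difference reached 1 in size, which is 2-fold, and the higher library had at least 10 reads. Of the 7 peptidases that passed this minimum, 3 were higher in P5 organoids (ANPEP, ENPEP and ACE), 3 were lower (MME, MEP1B and TMPRSS15) and DPP4 was within 2-fold. Of all 17783 rows with as many reads, 24.9% were higher and 22.8% lower. The median log2 difference was -0.20 over the 7 genes and 0.11 over all rows. In P10 organoids against intestine, ANPEP, ENPEP and ACE were again higher and MME, MEP1B and TMPRSS15 again lower, and DPP4 joined the lower genes. Among all rows, 28% were higher and 26.1% lower in P10 organoids than in intestine, and the medians were -2.23 over the 7 genes and 0.11 over all rows. ANPEP and ACE in P10 organoids fell short of 2-fold with each of the scalings by library size, which left ENPEP alone, and relative to EPCAM reads ENPEP did too, at 0.93. In every comparison the reads of ENPEP cannot be told apart from those of the overlapping LOC101902994. Both comparisons share the intestine library, so the repeat of directions is not independent, and the comparison of the passages below shares a library with each of them.

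P10 organoids were compared with P5 organoids to set the later passage beside the earlier one. With 1 library of each, passage cannot be told apart from culture or animal. All 7 peptidases were lower in P10 organoids, 6 of them at least 2-fold: ANPEP, MME, DPP4, TMPRSS15, ENPEP and ACE. None was at least 2-fold higher. Over all 16131 rows with as many reads, 16.6% were lower and 16.1% higher, and the median log2 difference was -2.39 over the 7 genes and 0.061 over all rows. The levels in P10 organoids, as a share of those in P5 organoids per library total, were 0.663% for ANPEP, 4.51% for TMPRSS15, 9.22% for MME, 15.2% for DPP4, 22.8% for ENPEP, 44.3% for ACE and 67.2% for MEP1B. Other lists also differed between the passages. The 9 enterocyte markers summed to 2498 RPM in P5 organoids and 214 in P10 organoids, with 1 and 3 of them at 0. The enterocyte marker SI, sucrase-isomaltase, was the 1 of the 9 that was at least 2-fold higher at P5 than in intestine, with 2288 reads in intestine, 6210 at P5 and 797 at P10. The 8 proliferation markers summed to 612 and 1083, with a median log2 difference of 0.81. Of the 8, MCM2 was at least 2-fold higher at P10, by 1.65, and 7 were within 2-fold. VIL1, the gene of the microvillus protein villin, had 335 and 193 RPM, and EPCAM, an epithelial surface marker, 1041 and 578. Relative to the EPCAM reads of each library, a scaling chosen after the values were seen, 5 of the 7 genes were still at least 2-fold lower in P10 organoids, ACE was within 2-fold (log2 difference -0.32), and MEP1B was 0.28 higher. In the comparison of P5 organoids with intestine that scaling left ANPEP and ENPEP higher, by log2 differences of 6.50 and 2.21, and placed DPP4 lower, at -1.64. Scaling to EPCAM moved the median of all rows to -1.59 in that comparison and to 0.96 between the passages, so DPP4 lay near the median of all rows. The part of these cell type differences in the values of the peptidases was not tested.

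**Figure D3:**
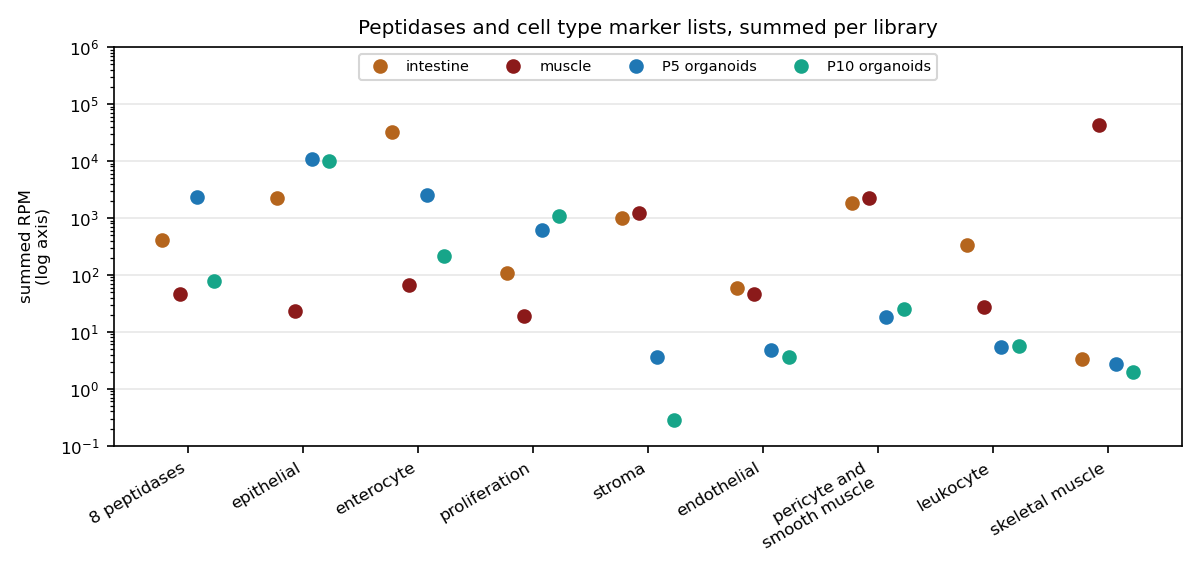
Summed RPM (log axis) of the 8 peptidases and of 8 lists of cell type markers in each library; each point is 1 library. Enterocyte markers stand at 31663 RPM in intestine, at 2498 in P5 organoids and at 214 in P10 organoids, and stroma markers are at 3.68 and 0.282 in the organoid libraries against 1009 in intestine.

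Muscle served as the tissue without an intestinal epithelium. Against muscle, intestine was at least 2-fold higher in MEP1B, TMPRSS15, DPP4 and MME and lower in ACE, ENPEP and ANPEP, where 32.3% of all 17559 rows were higher and 27% lower. For MEP1B, unread in muscle, the intestine level was 305-fold that of 3 reads in muscle, without the counting error of the intestine reads. The log2 differences of TMPRSS15, DPP4 and MME were 4.72, 4.14 and 2.10. P5 organoids were at least 2-fold higher than muscle in MEP1B, ANPEP, DPP4 and ENPEP and lower in TMPRSS15, with 33.5% of all rows higher and 27.3% lower. The TMPRSS15 difference of -1.13 (-2.22 to -0.06) rested on 17 and 19 reads, and by library totals the ratio was 0.850 (0.415 to 1.73), whose interval holds equal levels. ANPEP, DPP4 and ENPEP stood 6.64, 3.95 and 1.79 above muscle in P5 organoids on the log2 scale. P10 organoids were higher in MEP1B and DPP4 and lower in TMPRSS15, MME, ACE and ANPEP, with 35.2% higher and 28.5% lower. For MEP1B, P5 and P10 levels were 121-fold and 81.1-fold the level of 3 reads in muscle on the same basis. The 18S ribosomal RNA row RN18S1 held 23.6% of muscle reads and between 0.264% and 4.81% of those elsewhere. With library totals, the median of all rows moved from 0.08 to 1.31 for intestine against muscle, no peptidase was at least 2-fold lower in intestine, and ANPEP in P10 organoids changed from -1.17 to 0.22. With RN18S1 left out of the totals, that median was 0.99, and ACE, ENPEP and ANPEP were again at least 2-fold lower in intestine, at -1.20, -1.09 and -1.06. Relative to the median of all rows, the same 3 genes were lower than muscle in intestine under each of these scalings. With library totals MME and ACE turned from -0.13 and -0.21 to 1.15 and 1.12 in P5 organoids against muscle, which made 6 peptidases at least 2-fold higher in place of 4. ENPEP in P10 organoids turned from -0.44 to 1.0, which made 3 in place of 2. These values stand beside medians of all rows of 1.29 and 1.41 with library totals, and without RN18S1 none of the 3 genes reached 2-fold.

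Reads of intestinal genes also turned up in the muscle library. Of 7 enterocyte markers with at least 847 reads in intestine, muscle had between 0.109% (FABP1) and 2.32% (SI) of the intestine reads. The corresponding share was 0% for MEP1B, 1.30% for TMPRSS15, 1.79% for DPP4 and 8.10% for MME, so TMPRSS15 and DPP4 lay below SI and above the 6 other markers, which were at 0.312% or less, and MME lay above all 7. Muscle also held stroma and endothelial markers, summing to 1238 and 46.7 RPM, against 1009 and 59.9 in intestine. Both organoid libraries had at most 3.68 and 4.85. The 7 pericyte and smooth muscle markers summed to 1859 RPM in intestine and 2261 in muscle, and to 18.1 and 25.6 in P5 and P10 organoids. In muscle, 28404 of the 29213 reads of this list were of DES, so that sum rested on DES. In P10 organoids, 322 of the 454 reads were of NOTCH3, the 1 gene of the list that was at least 2-fold higher there than in intestine, by 1.48. Against muscle, 4 of the 7 were at least 2-fold higher in intestine, and DES and NOTCH3 were lower. Of all rows, 32.3% were higher and 27% lower. The 8 leukocyte markers were at 333 RPM in intestine, 27.6 in muscle and about 5.5 in both organoid libraries. The part of these cells in the levels of MME, DPP4, ENPEP, ACE and ANPEP in intact tissue was not tested.

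A list of 7 further apical peptidases and peptide-cutting enzymes of enterocytes and related epithelia was measured beside these genes; FOLH1 had no row of that name, which left 6. Of the 6, 5 were past 2-fold with the higher level at P5 when set against intestine, and none the other way. In that comparison 24.9% of all rows were higher and 22.8% lower. Between the passages all 6 were at least 2-fold lower at P10, with a median log2 difference of -2.67, or -2.23 with CPO at the level of 3 reads. Among all rows, 16.6% were lower and 16.1% higher at P10. DPEP1, a membrane dipeptidase, had 950 reads in intestine and 26 in muscle, and 5739 at P5 and 282 at P10. Its log2 difference was 2.80 for P5 organoids against intestine (2.70 to 2.90) and -4.84 for P10 against P5 organoids (-5.00 to -4.67). DPEP1 therefore stood highest in P5 organoids, like ANPEP and ENPEP, and at P10 it was below intestine, with a log2 difference of -2.03. GGT1, which cuts γ-glutamyl bonds of glutathione, had a log2 difference of 4.57 between P5 organoids and intestine (3.99 to 5.20). XPNPEP2, an aminopeptidase that acts before proline, differed by 5.20 (4.22 to 6.19), on 6 reads in intestine and 122 in P5 organoids. NAALADL1, a relative of FOLH1, differed by 2.90 and CPO, carboxypeptidase O, by 2.42, on 14 and 31 reads. Carboxypeptidase M (gene CPM) was within 2-fold, at 0.91. CPO had no read in P10 organoids. The counts of 5 higher and 6 lower held with library totals, TMM, upper-quartile and median-of-ratios scaling, and per EPCAM read they were 3 and 5. Per EPCAM read, 1006 of all rows were higher and 12544 lower in P5 organoids than in intestine. Between the passages, 7815 were higher and 1609 lower at P10.

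**Figure D4:**
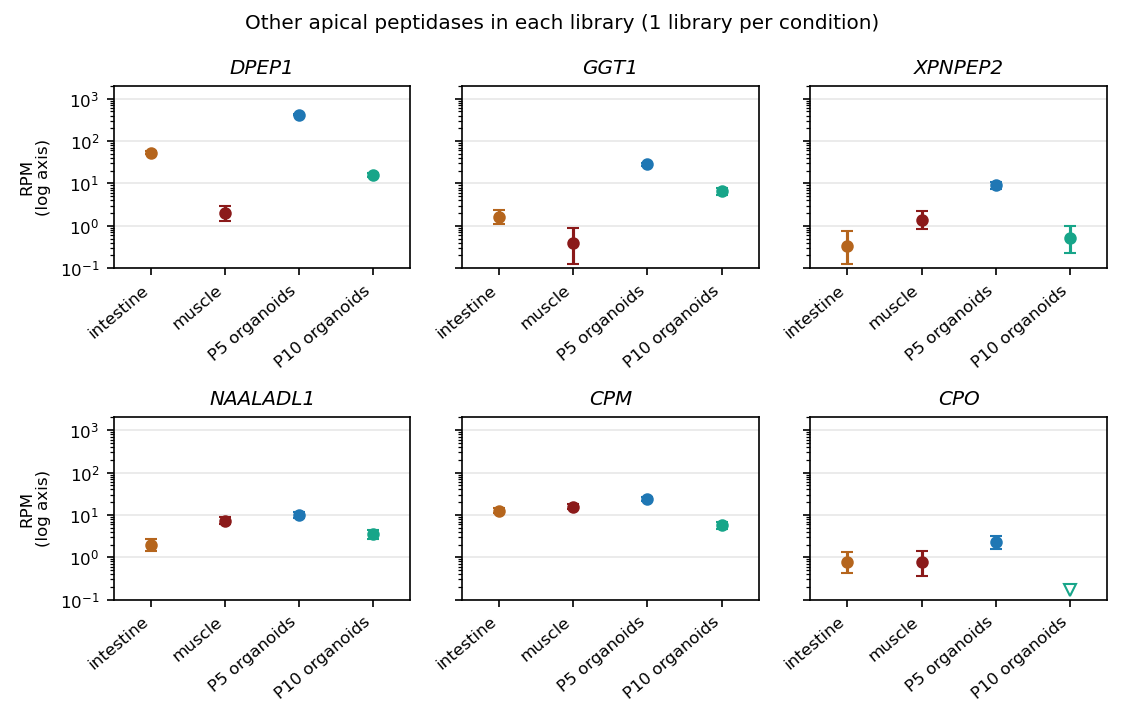
RPM (log axis) of 6 other apical peptidases in each of the 4 libraries, drawn as for the 8 brush border peptidases, with an open triangle at the level of 3 reads for the library without a read. As RPM, each of the 6 is highest in P5 organoids, with DPEP1 at 422. With quantile normalisation NAALADL1 and CPM are highest in muscle, at log2 values of 8.03 and 8.98 against 7.18 and 8.37 at P5.

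Peptidases of the cytosol and lysosome cut peptides within cells, including small peptides that have been taken up. Of 14 such genes, P5 organoids had 3 past 2-fold above intestine and 1 below, and P10 organoids had 4 higher and 3 lower. Of all rows, 24.9% were higher and 22.8% lower at P5, and 28% and 26.1% at P10. The median log2 difference of the 14 genes from intestine was 0.56 in each organoid library. Between the passages, 1 was higher in P10 organoids, 2 were lower and 11 were within 2-fold, where 16.1% of all rows were higher and 16.6% lower. Relative to EPCAM reads 8 were higher and 1 was lower, beside 7815 of all rows higher and 1609 lower. LAP3, leucine aminopeptidase, was lower than intestine in both organoid libraries, by -1.56 (-1.65 to -1.47) and -1.80 (-1.89 to -1.72). RNPEP, aminopeptidase B, was higher in both, by 1.24 and 2.18, as was THOP1, thimet oligopeptidase, by 1.37 and 2.93. For THOP1 the P5 value was below 1 with the scalings by library size. Relative to EPCAM reads, none of the 14 was past 2-fold above intestine at P5 and 7 were below. With that scaling 1006 of all rows were higher and 12544 lower, so these counts lean the same way as those of all rows. PEPD, which splits dipeptides that end in proline, and TPP1, a lysosomal tripeptidyl peptidase, were the lowest in P10 against P5 organoids, at -3.07 (-3.24 to -2.87) and -1.68 (-1.89 to -1.48). THOP1 and NLN, neurolysin, were the highest, at 1.55 and 0.95. PEPD had 1019 reads in intestine, 1609 in P5 organoids and 263 in P10 organoids.

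Relatives of the 8 genes in the same enzyme families, most of which work elsewhere, were counted in the same way. Of 15 genes, 13 had at least 10 reads in P5 organoids or intestine, of which 2 (LVRN and TRHDE) were past 2-fold above intestine and 1 (ERAP2) was below. Of all rows with as many reads, 24.9% were above and 22.8% below. With TMM, upper-quartile and median-of-ratios scaling the counts of these relatives were 0 and 2, with library totals 1 (ECE1) and 1. Relative to EPCAM reads they were 0 and 11, where 1006 of all rows were higher and 12544 lower. LVRN and ECE1 were named after their values were seen. In P10 against P5 organoids, 2 of 12 were higher and 3 lower, also with the scalings by library size, and relative to EPCAM reads 5 were higher and 1 was lower. Among all rows, 16.1% were higher and 16.6% lower, and relative to EPCAM reads 7815 were higher and 1609 lower. ERAP2, an aminopeptidase of the endoplasmic reticulum that trims peptides for antigen presentation, was lower than intestine in both organoid libraries, by -2.22 (-2.50 to -1.95) and -1.86 (-2.07 to -1.65). ERAP1, another trimming enzyme of that compartment, was -0.65 in P5 organoids and -2.11 in P10 organoids, with -1.47 between passages. TRHDE, which degrades thyrotropin-releasing hormone, differed by -1.96 between P10 and P5 organoids, on 19 and 79 reads. BMP1, a procollagen protease of the astacin family like the meprins, and ECE2, an endothelin-converting enzyme related to MME, were higher in P10 organoids by 1.21 and 1.01.

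For each peptidase that reached 50 reads in 1 of the libraries, the rows with the most similar profile were sought among 15051 rows with at least 50 reads, by the Euclidean distance of the log2 values centred over the 4 libraries. A distance over 4 libraries is a description of these profiles only. The nearest row to DPP4 was SLC28A1, a nucleoside transporter (distance 0.24), with 950 reads in intestine and 20 in muscle, and 707 at P5 and 166 at P10, followed by RARRES2 (0.42). MEP1B was nearest to CYP4F2 (0.49), a fatty acid hydroxylase, and GATA5 (0.73), a transcription factor. The nearest to TMPRSS15 were CD300LF (0.63), a receptor of myeloid cells, and UBD (0.73), an interferon-induced ubiquitin-like protein. The nearest to MME were C25H16orf54 (0.57) and LOC508455 (0.58), each at 0 reads in P10 organoids. ACE was nearest to SUDS3 (0.15) and NUDT4 (0.17), and ENPEP to the overlapping LOC101902994 (0.20) and FAM8A1 (0.31). No row was close to ANPEP. The nearest were CYP4A11 at 1.62 and LOC112442717 at 1.64, with 151 and 142 reads in P5 organoids and none in any other library. Among the 8 genes themselves, ENPEP and ACE lay closest together, at 1.47, and ANPEP and TMPRSS15 farthest apart, at 10.56.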

How the data were processed

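The deposited values are whole-number read counts per gene, made by the authors by aligning reads with Bowtie2 to the genome or representative transcripts and counting unique and multiple alignments with Bedtools. Genes with near-identical copies or overlapping models can share reads, and the genome build, annotation and versions are not given in the sources used here. All 8 genes are current RefSeq symbols (ARS-UCD2.0). The study names quantile normalisation with edgeR, so the 22200 rows with at least 1 read were quantile-normalised over the 4 libraries, tied counts taking the value of their average rank, and put on the log2(value + 1) scale. A single read then has a log2 value of 0.32 in intestine and 2.09 in muscle and P10 organoids, which distorts differences of thinly covered genes. Counting intervals carry exact Poisson limits of both counts through the normalisation and combine them by the square-and-add rule; ratios per library total have exact binomial intervals. With 1 library per condition no test was possible. The normalisation and intervals were tested on simulated libraries drawn from 1 averaged profile, without change or with a set of genes raised in 1 library. The 4 libraries here differ more than that, so the simulation does not show how the intervals perform at such differences. Gene lists, and the rule on named genes (all 8, the other apical peptidases with 10 reads, and of the other 2 peptidase lists those at least 2-fold from intestine in both organoid libraries with 50 reads, or the 2 highest and 2 lowest between passages), were chosen with earlier results of these data known. A gene of the list of other apical peptidases is not reported here. The alternatives, 11 in number, were library totals with and without RN18S1, edgeR's TMM and upper-quartile scaling, DESeq2's median of ratios, pseudocounts of 0.1 and 5, other read minimums and rows summed by symbol. Scaling to EPCAM reads was added after seeing the data. Tools were Python 3.11.15, numpy 2.4.6, scipy 1.17.1, pandas 2.3.3, R 4.3.3, edgeR 4.0.16, DESeq2 1.42.0, limma 3.58.1 and matplotlib 3.10.9.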

Additional observations from a re-analysis of the deposited data

How the results depend on the processing

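The counts of peptidases at least 2-fold apart stayed within 1.5 times under the 11 alternatives, except in 4 of the 12 directions. In P10 organoids against intestine, 3 were higher with quantile normalisation and 1 (ENPEP) with library totals, with or without RN18S1, TMM, upper-quartile and median-of-ratios scaling, and 0 per EPCAM read. In intestine against muscle, 3 were lower and 0 with library totals. In P10 organoids against muscle, 4 were lower, and 2 with library totals, with or without RN18S1. In P5 organoids against muscle, 1 was lower, and 0 with library totals, with or without RN18S1, or with a minimum of 50 reads. ANPEP in P10 organoids against muscle reversed to 0.22 with library totals. With library totals, ENPEP at P10 and MME and ACE at P5, within 2-fold of muscle with quantile normalisation, turned to 1.0, 1.15 and 1.12. Among all rows past 2-fold, the share that was higher went from 52.3% to 40.5% with TMM in P5 organoids against intestine and from 51.7% to 41.0% in P10 organoids, and the median of all rows from 0.11 to -0.081 and -0.12. With library totals that share went from 54.5% to 83.3% in intestine against muscle, from 55.1% to 76.4% in P5 organoids against muscle and from 55.2% to 75.5% in P10 organoids. No paired analysis was possible because each condition has 1 library and no replicate numbers. ACE had at most 97 reads in any library, MEP1A at most 9, and TMPRSS15 at most 19 outside intestine, which sets the width of their intervals.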
